A study of Mus musculus with 8 samples.

Results

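The genes described here are those of thyroid hormone activation, transport and reception in mouse brown adipose tissue. They are 8 genes (Dio1, Dio2, Dio3, Slc16a10, Slco1c1, Thra, Thrb and Ncor1) found by symbol among the 54532 genes of the deposited table. Total RNA of brown adipose tissue was sequenced in 4 wild-type libraries (WT 1, 2, 3 and 5) and 4 labelled TG (CLCF1-ATG) (TG 1, 2, 3 and 5). Each library was taken as 1 mouse, and the series concerns the effect of the cytokine CLCF1 on brown fat. The sources used here give no strain, age, sex or treatment, nor the promoter that drives the transgene. Values are FPKM, fragments scaled to gene length and to a divisor set by the authors for each library, so levels of different genes can be compared per length.

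Thyroid hormone reaches cells mostly as the prohormone thyroxine. The type 1 and type 2 deiodinases, encoded by Dio1 and Dio2, remove an iodine from its outer ring and make triiodothyronine, the form that binds the nuclear receptors, while the type 3 deiodinase, encoded by Dio3, removes one from the inner ring and inactivates both. The hormone crosses membranes on carriers such as those encoded by Slc16a10 and Slco1c1, and the receptors encoded by Thra and Thrb sit on DNA with a retinoid X receptor, bound by co-repressors such as the NCOR1 protein until the hormone is present. In brown fat the type 2 enzyme is known for raising triiodothyronine inside the adipocyte when the sympathetic nerves release noradrenaline, whose cyclic AMP signal increases Dio2 transcription.

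The 3 deiodinases are selenoproteins, and the codon TGA, elsewhere a stop, is read in them as selenocysteine, the residue at the catalytic centre. The stretches below are shown because this codon is what sets these enzymes apart from most others. They come from the GENCODE M21 transcripts of the mm10 assembly, with the selenocysteine codon in capitals and 12 bases on each side of it.
Dio1: ggcagttgcaccTGAccttcatttctt
Dio2: ggttcagccaccTGAccacctttcact
Dio3: ggcagctgtaccTGAccaccgttcatg
The codon is number 126 of Dio1, 130 of Dio2 and 170 of Dio3. Of the 27 bases shown, 15 were identical between Dio1 and Dio2, 19 between Dio1 and Dio3 and 17 between Dio2 and Dio3. Dio2 has a second annotated selenocysteine codon near its end, number 263. Over whole transcripts the longest run of identical bases shared by any pair of deiodinases was 11 to 13 bases, and Thra and Thrb shared a run of 26 bases.

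The window around the RefSeq start of Dio2 is shown because Dio2 was the gene of this group with by far the lowest TG level relative to WT, and because cyclic AMP is a known regulator of it. It lies at chr12:90738989-90739288 on the minus strand of GRCm38.p6, from 250 bases before to 50 bases after the start, upstream of the bounds the deposited table gives for the gene. Capitals mark the palindromic cyclic AMP response element TGACGTCA.
Dio2 promoter: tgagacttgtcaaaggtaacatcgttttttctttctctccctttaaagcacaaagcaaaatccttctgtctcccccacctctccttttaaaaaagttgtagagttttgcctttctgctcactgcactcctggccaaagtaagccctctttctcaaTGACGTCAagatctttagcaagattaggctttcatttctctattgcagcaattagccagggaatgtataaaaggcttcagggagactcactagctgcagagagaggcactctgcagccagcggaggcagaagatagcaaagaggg
The element begins 95 bases before the start. On either strand it was found in 1.79% of 32851 promoter windows of the same length. Of the other letters searched on both strands, the STAT element TTCNNNGAA (in 8.30% of windows) and the nuclear receptor core motif AGGTCA (in 16.3%) had no match in this Dio2 window. Among the windows of the other members, TTCNNNGAA was found in 1 of the 2 windows of Ncor1, and AGGTCA and the shorter element TGACG (in 20.8% of windows) each in 1 of the 2 windows of Thrb. The shorter element is also contained in the full element of Dio2. The direct repeat of AGGTCA with 4 bases between (in 0.0152% of windows), the arrangement best known for thyroid hormone receptors, had no match in the windows of these genes, which says only that the letters are not in them. A match describes the letters only.

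The libraries held 13734231 to 15751302 recovered reads in WT and 18494022 to 20183840 in TG, recovery meaning division of each FPKM by what 1 read is worth. Mitochondrial reads made up 24.1 to 37.5% of them in WT and 6.09 to 7.34% in TG. Recovered reads over the authors' divisor were 1.02 to 1.22 in WT and 0.822 to 0.883 in TG. The deposited scaling thus differed by genotype relative to all recovered reads. Clcf1, the gene named by the transgene, ranged from 0.434 to 3.40 FPKM in WT and from 78.7 to 89.9 FPKM in TG, so all 8 libraries followed their labels. The fit across all genes (limma on log2(FPKM + 1), Benjamini-Hochberg adjusted p under 0.05) tested the 12508 genes that reached 0.5 FPKM in 4 or more libraries and called 44.1% of them, 22.3% higher and 21.8% lower in TG. The tissue held the defining transcripts of fat: adipocyte markers (Adipoq, Plin1, Lipe, Pparg, Cfd and Lep) summed to 3974 to 6389 FPKM in WT and 16418 to 25776 FPKM in TG, with 5 of 6 higher and none at 0. Brown adipocyte markers (Ucp1, Cidea, Ppargc1a, Prdm16, Ebf2, Zic1, Lhx8 and Otop1) summed to 2574 to 4014 and 130 to 309 FPKM, with 4 of 8 lower, 2 higher and none at 0. Ucp1 and Cidea, with WT means of 1420 and 2031 FPKM, made up most of that sum, and the median log2 change of the 8 was -0.32. Single genes likewise made up most of the adipocyte (Cfd), mural (Rgs5) and macrophage (Lyz2) sums. Endothelial markers (49.3 to 113 against 11.5 to 24.1 FPKM, 5 of 5 tested lower), mural and smooth muscle markers (107 to 140 against 19.0 to 40.6 FPKM, 5 of 5 tested lower) and macrophage markers (131 to 203 against 234 to 275 FPKM, 5 of 6 higher) also moved with genotype. Red blood cell (5 of 5) and neutrophil markers (3 of 3 tested) were lower as well, fibroblast markers split (2 of 6 higher, 1 lower), and among lymphocyte markers 1 of 3 tested was higher and among nerve markers 0 of 2. Skeletal muscle markers varied within groups, from 11.5 to 2446 FPKM in WT and from 116 to 1377 FPKM in TG, and were highest in WT 2 and TG 5. The part of these cell types in the results below was not tested.

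Of the 8 genes, 5 reached the minimum for the fit, and 3 of those 5 passed it: Dio2 was lower in TG, and Thra and Ncor1 were higher. Thrb and Slc16a10 did not pass. Dio3 missed the minimum, with 3 libraries at 0.5 FPKM or more, and Dio1 and Slco1c1 were at or near 0 reads. The same 3 genes were those whose groups did not overlap, which held for 42.6% of all tested genes. With 44.1% of all tested genes called, a count of 3 among 5 says nothing of the group as a whole. In bulk tissue, fewer cells of a type and less RNA per cell cannot be told apart.

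**Figure D1:**
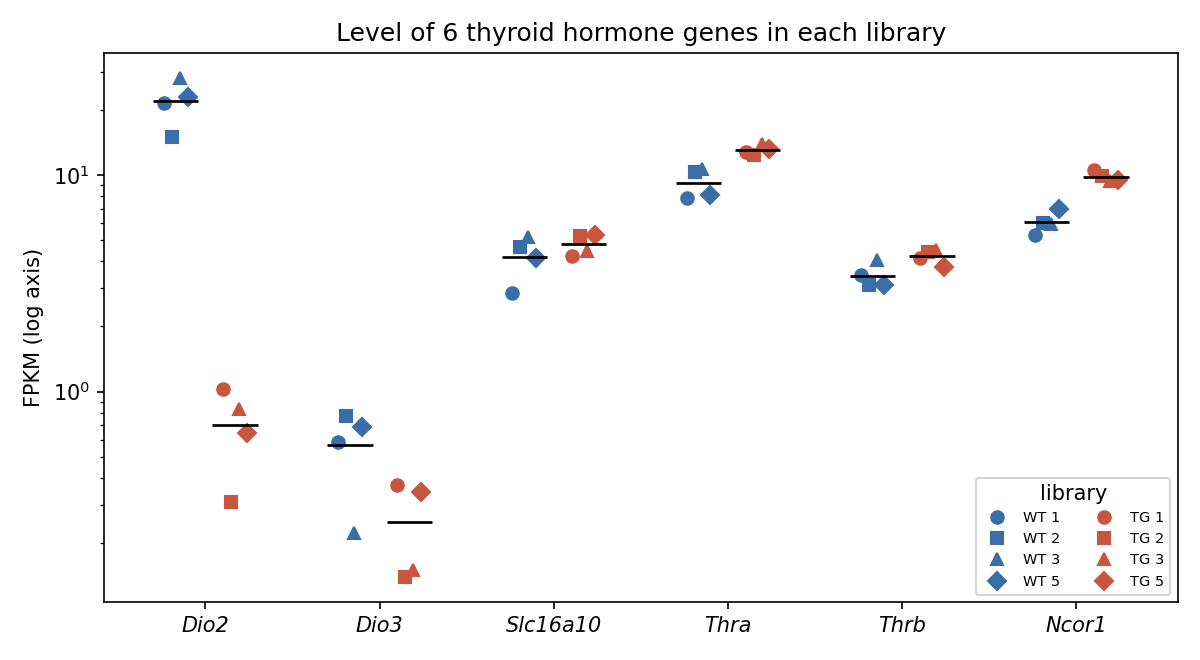
FPKM of the 6 genes with reads in all 8 libraries, on a log axis. Each symbol is 1 library (WT blue, TG red, the shape giving the mouse number) and each bar is the mean of 4 libraries. The TG values of Dio2, 0.309 to 1.02 FPKM, lie far below the WT values, 14.99 to 28.04 FPKM, while the other 5 genes differ much less.

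The activating enzyme gene Dio2 (ENSMUSG00000007682, chromosome 12, 90724552 to 90738438, minus strand, mm10) stood at 21.4, 14.99, 28.04 and 22.97 FPKM in WT 1, 2, 3 and 5, and at 1.02, 0.309, 0.835 and 0.645 FPKM in TG 1, 2, 3 and 5. The lowest WT library was thus well above the highest TG library, by 14.6-fold. These values rest on 1173 to 2168 reads per WT library and on 38 to 142 reads per TG library. The WT mean was 21.8 ± 5.38 FPKM and the TG mean 0.703 ± 0.305 FPKM (SD, n = 4 each), a ratio of 31.1. The log2 change of Dio2, taken as TG minus WT of log2(FPKM + 1), was -3.73 (SE 0.196, 95% confidence interval -4.17 to -3.29, limma adjusted p = 1.87e-06). It was the 20th lowest change among the 12508 tested genes. The added 1 makes the change smaller than the ratio of means, and with 0.01 added in its place the log2 change was -5.03.

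Dio2 also changed place in the order of levels. In WT its mean exceeded that of 84.7% of the tested genes and was the highest of the 8 members, followed by Thra, Ncor1, Slc16a10, Thrb, Dio3, Slco1c1 and Dio1. In TG the order was Thra, Ncor1, Slc16a10, Thrb, Dio2 and Dio3, with Slco1c1 and Dio1 at 0. Neighbours in these orders did not overlap except Slco1c1 and Dio1, at or near 0 reads, Slc16a10 and Thrb, whose ranges overlapped in both groups, and Dio2 and Dio3 in TG, where the lowest Dio2 value of 0.309 FPKM lay under the highest Dio3 value of 0.372 FPKM. Within TG, Dio2 varied more than in WT, with a highest to lowest ratio of 3.32 against 1.87. TG 1 was highest and TG 2 lowest.

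The genes most like Dio2 were sought among 11037 protein-coding tested genes, by the root mean square difference over the 8 libraries in log2(FPKM + 1) after subtracting the WT mean of each gene. The nearest were mt-Co2 (0.309), Acaa2 (0.313), mt-Atp6 (0.322), mt-Atp8 (0.341) and Slc27a2 (0.377). This nearness depends on the added 1, which makes the change of Dio2 smaller. With 0.01 added in its place the log2 change was -5.03 for Dio2. In the same order, it was then -3.56, -3.53, -4.04, -4.39 and -4.85 for the 5 genes. mt-Co2, mt-Atp6 and mt-Atp8 encode respiratory chain and ATP synthase subunits on mitochondrial DNA, Acaa2 a thiolase of fatty acid oxidation, and Slc27a2 an acyl-CoA synthetase. Slc27a2, for example, averaged 38.3 ± 3.97 FPKM in the WT libraries and 1.47 ± 0.813 FPKM in those of TG (SD, n = 4 each). Mitochondrial transcripts have near copies in the nuclear genome, which makes the values of such genes uncertain.

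The inactivating enzyme gene Dio3 (ENSMUSG00000075707, chromosome 12, 110279068 to 110281097, plus strand) was low in all libraries. It stood at 0.585, 0.769, 0.222 and 0.688 FPKM in WT 1, 2, 3 and 5 and at 0.372, 0.140, 0.151 and 0.344 FPKM in TG 1, 2, 3 and 5, from 6 to 21 reads per library. WT 3 lay among the TG values, so the groups overlapped. The means were 0.566 ± 0.241 and 0.252 ± 0.123 FPKM (SD, n = 4 each), and the exact permutation test (70 assignments, two-sided) gave p = 0.0857, where 0.0286 is the smallest possible with 4 against 4. With no minimum on FPKM the limma fit gave Dio3 a log2 change of -0.31 (SE 0.133, adjusted p = 0.161). At this depth a difference in Dio3 was not resolved.

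The other outer-ring enzyme gene, Dio1 (ENSMUSG00000034785, chromosome 4, 107291465 to 107307169, minus strand), had 0 reads in all 8 libraries. A count of 0 allows a level of up to 0.0305 FPKM in WT and 0.0168 FPKM in TG, the levels that 3 reads over the 4 libraries of a group would give. The limits cover counting error only. Against the 21.8 FPKM of Dio2 in WT, reads of an outer-ring deiodinase were thus seen for Dio2 alone.

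The carrier gene that could be tested, Slc16a10, did not pass, and Slco1c1 was too low for the test. Slc16a10, which encodes a carrier of aromatic amino acids and thyroid hormone (ENSMUSG00000019838, chromosome 10, 40033532 to 40142258, minus strand), stood at 2.84, 4.63, 5.17 and 4.16 FPKM in WT 1, 2, 3 and 5 and at 4.21, 5.22, 4.45 and 5.30 FPKM in TG 1, 2, 3 and 5. TG 1 and TG 3 lay inside the WT range, and TG 2 and TG 5 lay just above it. The log2 change of Slc16a10 was 0.17 (SE 0.154, 95% confidence interval -0.17 to 0.52, limma adjusted p = 0.388), an interval that covers ratios from 0.888 to 1.43 on that scale. Slc16a10 was called higher under 2 scalings that also raised the median of all genes, with a common sum that left out the most abundant genes (log2 change 0.48, adjusted p = 0.0263) and with division by all recovered reads (0.52, 0.0217), over a range of adjusted p from 0.0217 to 0.834. Slco1c1, which encodes a thyroxine carrier best known from brain capillaries (ENSMUSG00000030235, chromosome 6, 141524368 to 141570177, plus strand), had 2 reads in WT 1 and 0 in the other 7 libraries.

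Both receptor genes were expressed in every library. Thra (ENSMUSG00000058756, chromosome 11, 98740638 to 98769006, plus strand), the gene of receptor alpha, stood at 7.80, 10.4, 10.6 and 8.05 FPKM in WT 1, 2, 3 and 5 and at 12.8, 12.3, 13.9 and 13.1 FPKM in TG 1, 2, 3 and 5. All TG values lay above all WT values, as was the case for 22.1% of the tested genes. The means of Thra were 9.21 ± 1.49 and 13.03 ± 0.653 FPKM (SD, n = 4 each), a ratio of 1.42, and the log2 change was 0.47 (SE 0.119, 95% confidence interval 0.20 to 0.74, limma adjusted p = 0.0103). Of the tested genes 82.0% had a lower log2 change. With division by all recovered reads, which raised the median of all genes to 0.32, the log2 change of Thra was 0.86, and over its alternatives it ran from 0.40 to 0.86.

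The 3' end of Thra runs into Nr1d1, a clock repressor gene on the opposite strand, and the annotated exons of both share 263 bases, which touch 2 of the 9 Thra transcripts. The sources used here do not give the strand setting of the counting, and reads of both genes in that stretch cannot be told apart without strand. Nr1d1 ranged from 13.4 to 31.5 FPKM in WT and from 18.8 to 35.0 FPKM in TG, overlapping between the groups (log2 change 0.44, SE 0.273, limma adjusted p = 0.218). Nr1d1 was called higher with the common sum and with division by all reads (adjusted p = 0.0309 and 0.0268, over a range of 0.0268 to 0.463). WT 1 and WT 5 were the lowest WT libraries for both genes, while TG 2 was the highest TG library for Nr1d1 and the lowest for Thra (35.0 and 12.3 FPKM). The part of Nr1d1 reads in the Thra values was not tested. The table gives 1 value per gene, so the hormone-binding and non-binding forms of receptor alpha are not separated.

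Thrb, the gene of receptor beta (ENSMUSG00000021779, chromosome 14, 17660261 to 18038090, plus strand), stood at 3.46, 3.11, 4.06 and 3.10 FPKM in WT 1, 2, 3 and 5 and at 4.12, 4.43, 4.53 and 3.75 FPKM in TG 1, 2, 3 and 5. The groups overlapped through WT 3 and TG 5. The log2 change of Thrb was 0.23 (SE 0.108, 95% confidence interval -0.01 to 0.48, limma adjusted p = 0.108), so a difference between no change and a ratio of 1.39 on that scale was not resolved. Without WT 3 the test was passed (adjusted p = 0.0484, log2 change 0.30), and over the alternatives the adjusted p of Thrb ran from 0.00153 to 0.227.

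Within each library Thra was the more abundant receptor gene per length. Thra over Thrb was 2.25, 3.33, 2.61 and 2.59 in WT 1, 2, 3 and 5 and 3.11, 2.78, 3.06 and 3.51 in TG 1, 2, 3 and 5. WT 2 lay among the TG values. This ratio does not depend on how the libraries were scaled, and its log2 averaged 1.42 ± 0.235 over the WT libraries and 1.63 ± 0.138 over those of TG (SD, n = 4 each; exact permutation test, two-sided, p = 0.229).

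**Figure D2:**
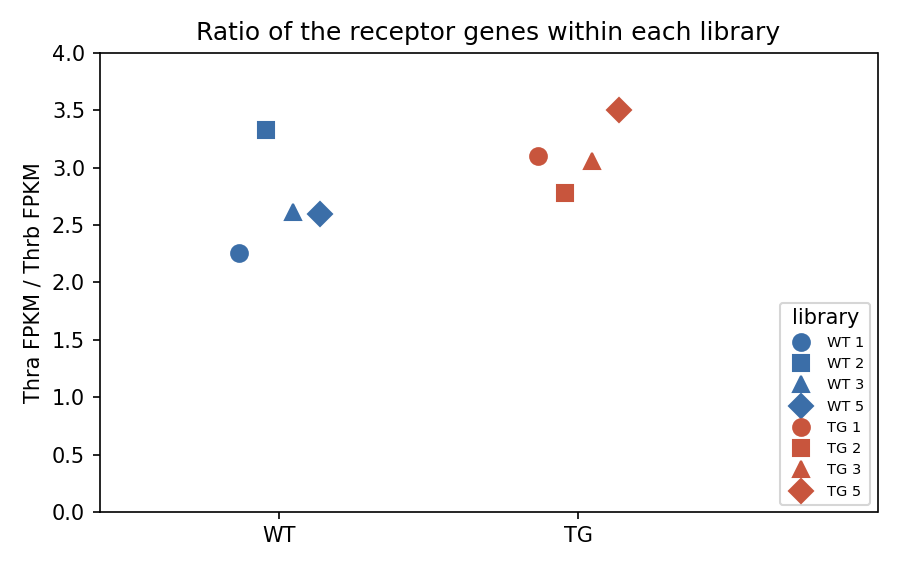
Ratio of Thra FPKM to Thrb FPKM in each library, on a linear axis from 0. Each symbol is 1 library (WT blue, TG red, the shape giving the mouse number). The ratios run from 2.25 to 3.33 in WT and from 2.78 to 3.51 in TG and overlap.

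Ncor1, the gene of the nuclear receptor co-repressor (ENSMUSG00000018501, chromosome 11, 62316426 to 62458541, minus strand), was higher in TG. It stood at 5.29, 6.005, 5.92 and 6.95 FPKM in WT 1, 2, 3 and 5 and at 10.5, 9.91, 9.39 and 9.50 FPKM in TG 1, 2, 3 and 5. The lowest TG library exceeded the highest WT library by 1.35-fold. The means of Ncor1 were 6.04 ± 0.687 and 9.83 ± 0.511 FPKM (SD, n = 4 each), a ratio of 1.63, and the log2 change was 0.62 (SE 0.102, 95% confidence interval 0.40 to 0.85, limma adjusted p = 0.000964). Of the tested genes 87.8% had a lower log2 change. With the same division the log2 change of Ncor1 was 1.003, and over its alternatives it ran from 0.57 to 1.003. Exons of the opposite-strand genes Pigl and Ttc19 share 82 bases and 1 base with those of Ncor1, and touch 1 and 2 of its 25 transcripts.

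**Figure D3:**
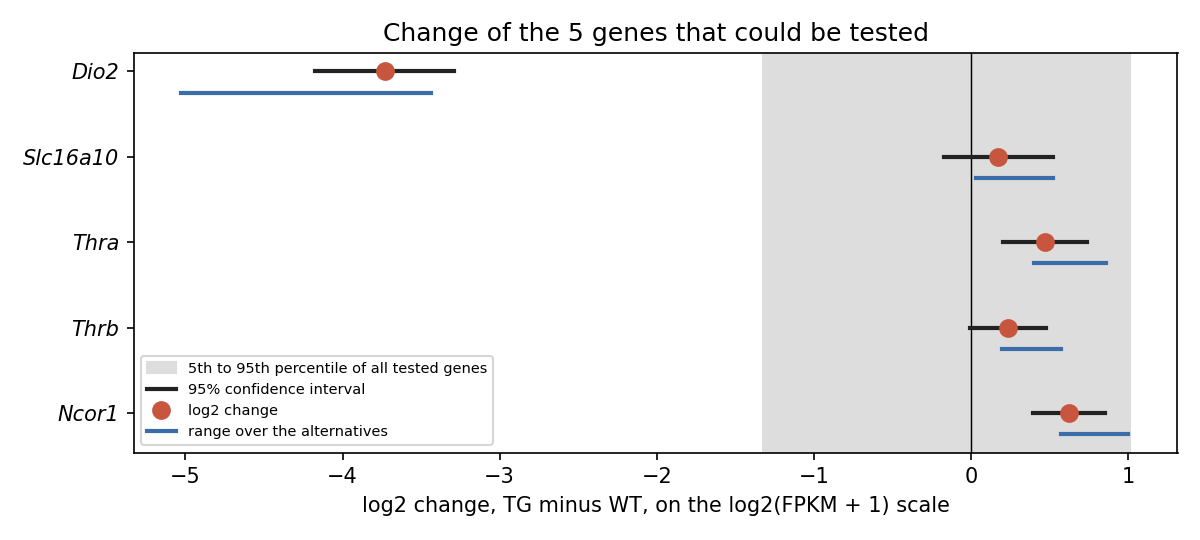
Log2 change of the 5 tested genes, TG minus WT of log2(FPKM + 1). Points are the changes, black lines the 95% confidence intervals, blue lines the range over the alternatives, and the grey band the 5th to 95th percentile of all tested genes (-1.32 to 1.01). Dio2, at -3.73, lies far below the band, and Thra (0.47) and Ncor1 (0.62) have intervals above 0 and lie inside it.

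The lists that follow are to be read against the same 44.1%, and their members were not tested as sets. Other carriers of thyroid hormone were read from a list of 9 genes, of which 6 were tested, 2 rose, 0 fell and 4 did not pass. The median log2 change was 0.40, against 0.01 over all tested genes. Slco2b1, an organic anion carrier gene, rose from 5.60 ± 2.82 to 11.5 ± 1.09 FPKM (SD, n = 4 each), with a limma adjusted p of 0.00938. The call of Slco2b1 was lost when both WT 2 and TG 5 were left out, the libraries richest in muscle transcripts (adjusted p = 0.0573, the highest over its alternatives, the lowest being 0.000428). The amino acid carrier genes Slc7a8 and Slc3a2 had log2 changes of 0.46 and 0.34 and did not pass (limma adjusted p = 0.0843 and 0.243). Slc7a8 was called higher without WT 2 (adjusted p = 0.0246) and Slc3a2 without WT 3 (0.00880), over ranges of 0.0196 to 0.206 and 0.00880 to 0.512.

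Selenocysteine insertion, which all 3 deiodinases need, and selenium supply showed changes in both directions. Of 9 genes 8 were tested, 3 rose, 2 fell and 3 did not pass (median log2 change 0.28). Selenop, the gene of the plasma selenium carrier, rose from 119 ± 12.5 to 471 ± 48.3 FPKM (SD, n = 4 each; limma adjusted p = 4.49e-06), and its log2 change was 1.98. Eefsec, the elongation factor that delivers selenocysteine, rose by a log2 change of 0.72 and Sepsecs, the enzyme that makes it on its transfer RNA, by 0.30, while Pstk, the kinase of the step before, fell by 0.70 on the log2 scale. Sephs2, which makes the selenium donor, was the other gene that fell (log2 change -0.40, limma adjusted p = 0.0479) and was named after its value was seen. The call of Sephs2 was lost without any one of WT 1, WT 2, WT 3, WT 5, TG 1, TG 2 or TG 5 (adjusted p = 0.0587 to 0.107), and with division by all recovered reads its log2 change was 0.02, the adjusted p running from 0.0272 to 0.913 over its alternatives. The call of Sepsecs was lost without WT 1, WT 3, TG 1, TG 2 or TG 5 (adjusted p = 0.0565 to 0.0741), over a range of 0.000899 to 0.111.

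The DIO2 protein is short-lived, since it is tagged with ubiquitin and degraded. Of 7 genes of this turnover all were tested, 2 rose, 2 fell and 3 did not pass (median log2 change -0.17). Wsb1, a ubiquitin ligase adaptor that recognises the enzyme, ranged from 5.02 to 11.9 FPKM in WT and from 1.76 to 2.77 FPKM in TG, with no overlap (log2 change -1.37, SE 0.223, limma adjusted p = 0.000960). March6, another ubiquitin ligase that acts on it, rose from 9.59 ± 0.674 to 15.8 ± 0.950 FPKM (SD, n = 4 each; limma adjusted p = 0.000392). Usp33, a deubiquitinating enzyme that rescues the protein, rose by 0.57 on the log2 scale, and Ube2g2, a ubiquitin-conjugating enzyme, fell by 0.42. The call of Ube2g2 was lost without WT 3, TG 2 or TG 3 (limma adjusted p = 0.0513, 0.0656 and 0.0558), over a range of 0.0165 to 0.958. Upper quartile and quantile scaling also lost it (log2 change -0.30 and -0.32). With the common sum and with division by all recovered reads the log2 change of Ube2g2 was near 0 (-0.056 and -0.0096).

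Receptor partners and co-regulators numbered 17, all tested, of which 7 rose, 3 fell and 7 did not pass (median log2 change 0.29). The 3 retinoid X receptor genes, whose proteins pair with thyroid hormone receptors on DNA, moved apart. Rxra rose from 9.05 ± 1.07 to 29.2 ± 1.09 FPKM (SD, n = 4 each; limma adjusted p = 4.81e-06), and its log2 change was 1.59. Rxrb fell by 0.71 on the log2 scale (16.2 ± 0.681 to 9.56 ± 1.60 FPKM). Rxrg fell by 0.98 (10.7 ± 2.83 to 4.88 ± 1.14 FPKM). The third gene that fell was Ncoa3, a co-activator gene (log2 change -0.57, limma adjusted p = 0.0177). Without TG 2 Ncoa3 lost its call (adjusted p = 0.0539), over a range of 0.00625 to 0.244. Upper quartile scaling, the common sum and division by all recovered reads also lost it (log2 change -0.48, -0.29 and -0.25). Nrip1, a co-repressor gene of nuclear receptors, ranged from 2.36 to 3.46 FPKM in WT and from 9.39 to 11.8 FPKM in TG (log2 change 1.58, limma adjusted p = 9.37e-06). Tbl1x, the gene of a subunit of the NCOR1 complex, rose by 1.25. The co-activator genes Ncoa2 and Carm1 went the other way from Ncoa3 and rose (log2 changes 0.52 and 0.49, limma adjusted p = 0.00224 and 0.0103). Rxrg, Ncoa3, Ncoa2 and Carm1 were named after their values were seen.

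Genes known to respond to thyroid hormone numbered 14, all tested, of which 6 fell, 2 rose and 6 did not pass (median log2 change -0.56). Gpd2, the mitochondrial glycerol phosphate dehydrogenase, ranged from 41.1 to 79.4 FPKM in WT and from 6.79 to 11.97 FPKM in TG, with no overlap (log2 change -2.57, SE 0.227, limma adjusted p = 2.48e-05). Mlxipl, a carbohydrate-responsive transcription factor, fell by 1.54 on the log2 scale, Hadh, a dehydrogenase of fatty acid oxidation, fell by 1.04, and Ucp1, the uncoupling protein, fell by 4.21. Those that rose were Klf9, a transcription factor (21.4 ± 5.51 to 33.05 ± 5.54 FPKM, SD, n = 4 each, limma adjusted p = 0.0234), and Cpt1a, a carnitine transferase (log2 change 0.78, limma adjusted p = 0.00927). Both were chosen for naming with their values in view. Klf9 lost its call without WT 5 (adjusted p = 0.0525) or TG 1 (adjusted p = 0.0647), over a range of 0.00274 to 0.0647. These genes have other regulators too. Of the 8 brown adipocyte markers named above 4 fell, 2 rose and 2 did not pass. Ucp1 and Ppargc1a, which fell, are on both lists. Without WT 3 the genes that fell numbered 4, and without WT 5 or TG 1 the genes that rose numbered 1.

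Receptors and kinase genes whose signals act on Dio2 transcription numbered 12, of which 11 were tested, 4 rose, 0 fell and 7 did not pass (median log2 change 0.08). Tshr, the thyrotropin receptor gene, ranged from 0.940 to 1.4965 FPKM in WT and from 5.82 to 8.85 FPKM in TG (log2 change 1.82, SE 0.140, limma adjusted p = 1.14e-05). It lies on the same chromosome as Dio2, with a gap of 646 kilobases between them. Nr1h3, an oxysterol receptor gene, and Adrb3, the gene of the beta-3 adrenergic receptor, rose by log2 changes of 0.66 and 0.69, and Prkar2b, a regulatory subunit of protein kinase A, by 0.55 (limma adjusted p = 0.0305). The call of Prkar2b was lost without WT 2, TG 2, TG 3 or TG 5 (adjusted p = 0.0610, 0.0901, 0.0589 and 0.0529), over a range of 0.000522 to 0.0964. Although 0 genes of this list fell with all libraries, 1 fell without WT 1 or WT 3 and 2 without WT 5. The list does not separate genes that raise Dio2 transcription from those that lower it, so its counts give no direction for Dio2.

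Leaving out WT 2 and TG 5 together, the libraries highest in skeletal muscle markers, gave fewer calls in every list. Calls also fell over all genes, to 31.7% of 11793 tested against 44.1% with all libraries. Carriers then had 1 gene higher of 5 tested, selenocysteine insertion 2 higher and 1 lower, DIO2 turnover 2 higher and 1 lower, and partners and co-regulators 5 higher and 2 lower. Of the responsive genes 5 fell and 2 rose, and of the signal genes 3 rose.

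**Figure D4:**
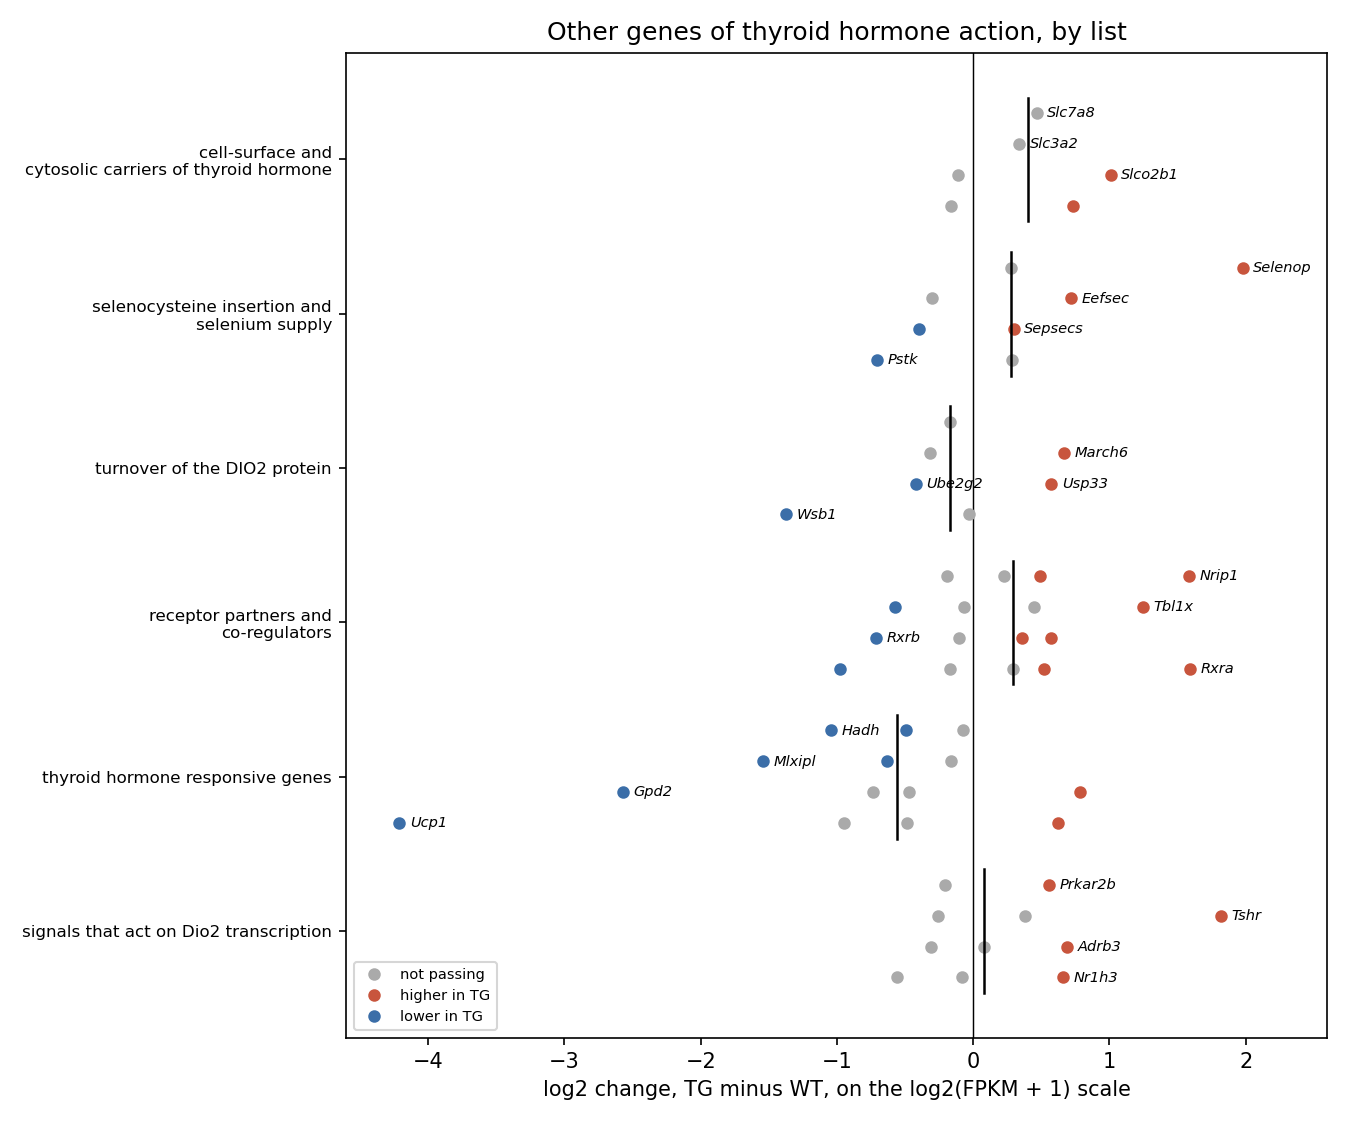
Log2 changes of the tested members of the 6 lists, TG minus WT of log2(FPKM + 1). Each dot is 1 gene, coloured by whether it was higher, lower or did not pass at an adjusted p of 0.05, black lines are list medians, height within a list has no meaning, and the genes named are among those with the lowest p in each list. The thyroid hormone responsive list has the lowest median (-0.56), with Ucp1, Gpd2, Mlxipl and Hadh at its low end.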

How the data were processed

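The authors deposited FPKM for each gene and library, with gene positions and lengths. The submitters' processing notes name the build mm10 and the tools featureCounts 1.5.0-p3, HISAT2 2.0.5 and bcl2fastq; the sources used here give no annotation, strand setting or origin of the divisor. Each column was matched to a mouse by the genotype and number in its name. Deposited lengths and positions of all 8 genes matched GENCODE M21. FPKM times length was a whole multiple of 1 step per library (largest distance 6.52e-09), which gave reads per gene.

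The test between genotypes was limma (3.58.1, under R 4.3.3; two-sided, eBayes with trend) on log2(FPKM + 1). It took the 12508 genes that reached 0.5 FPKM in 4 or more libraries, and p-values were adjusted over all of them by Benjamini-Hochberg. Single values were compared by exact permutation. Each library was taken as 1 mouse from its numbered title, and the p-values rest on how the libraries varied. On simulated data for this comparison (12330 genes) 78% of 2-fold rises, 60.9% of falls to 0.5 and all 4-fold changes were recovered. The simulation left 12140 genes unchanged and gave all genes the same spread setting. The real fit called 44.1% of genes, so these rates do not carry over to it. Smaller changes were not simulated.

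The members and lists were chosen with earlier results of these data known. Genes named are the 8 members, Clcf1, up to 4 per list with the lowest p, the 5 nearest to Dio2 and genes overlapping a member; others are said to be named after their values were seen. The list counts include genes not reported here by name. Promoter windows are from RefSeq (GRCm38.p6), where 7 of the 8 genes matched. Figures were drawn with matplotlib 3.10.9. Alternatives covered the pseudocount, filter, scaling, variance model, voom on recovered reads, replicate block and left-out libraries.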

Additional observations from a re-analysis of the deposited data

Results flagged for a closer look

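One value stood apart from its group. Slco1c1 was at 0.0327 FPKM in WT 1 and at 0 in WT 2, WT 3 and WT 5, so the gap made up the whole range of the group. That value rests on 2 reads, and a gene with reads in a single library always meets this criterion. The criterion is set for a chance rate of about 1 of 20 groups with continuous values, a rate that does not hold for so few reads.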

How the results depend on the processing

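Over the alternatives the 5 tested members kept their direction in 123 of 123 values, and the calls of Dio2, Thra and Ncor1 held in all of theirs; 6 values added a call. Thrb was called higher with upper quartile scaling (log2 change 0.33), a common sum that left out haemoglobin, mitochondrial and the 20 most abundant genes (0.54) and division by all reads (0.57), and ran from 0.20 to 0.30 with 1 library left out. Slc16a10 was called with the same common sum (0.48) and division (0.52). Thra went from 0.47 to 0.82 with the common sum and 0.86 with the division, and Ncor1 from 0.62 to 0.96 and 1.003. The common sum and the division moved the median of all genes from 0.01 to 0.28 and 0.32 and upper quartile to 0.10. The changes given for these scalings include that shift. They gave 5318 and 5569 genes higher and 1527 and 1415 lower in TG, against 2788 and 2725. A filter of 5 FPKM, with fewer genes tested, gave 3148 calls (1445 higher, 1703 lower), and leaving out WT 2 and TG 5, with fewer samples, 1827 higher. The 38 other named genes, Ncoa2 and Carm1 left out, had 942 values. Of these 881 kept direction and call, 48 lost and 8 gained a call and 5 changed sign. The latter were Sephs2 with division by all reads (0.0207), Gps2 with upper quartile scaling (0.00884), the common sum (0.24) and division (0.28), and Gps2 without WT 5 (0.00792, the range with 1 library left out being -0.18 to 0.01). The cause was not tested.

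With the replicate block 4847 genes were called (2389 higher, 2458 lower). Same-numbered WT and TG libraries correlated at -0.19, -0.173, 0.0373 and -0.238 (numbers 1, 2, 3 and 5), none over 0.1, so the numbers were not taken as pairs. The block lost the calls of Klf9 (adjusted p = 0.0627), Sephs2 (0.101), Ncoa3 (0.0526) and Sepsecs (0.0742). It lost no other call among the genes followed over the alternatives. Dio1, Dio3 and Slco1c1 are limited by depth, with at most 57 reads per group.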

Other observations

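NCOR1 works in a complex with the deacetylase HDAC3 and the subunits TBL1X, TBL1XR1 and GPS2. Beside Ncor1 and Tbl1x, given above, Hdac3 averaged 13.1 ± 0.252 FPKM over the WT libraries and 17.1 ± 1.34 FPKM over those of TG, and Tbl1xr1 at 2.74 ± 0.425 and 4.54 ± 0.484 FPKM (SD, n = 4 each; log2 changes 0.36 and 0.57, limma adjusted p = 0.0103 and 0.00396). Leaving out WT 2 and TG 5 ended the call of Hdac3 (adjusted p = 0.0658), over a range of 9.24e-05 to 0.0658. Gps2 did not pass (limma adjusted p = 0.571), at 9.63 ± 1.95 against 8.80 ± 0.857 FPKM. These genes were chosen after their values were seen, and their common change was not tested.

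Crym, which encodes a cytosolic triiodothyronine-binding protein, was too low for the fit, at 0.0444 to 0.155 FPKM in WT and 0 to 0.0258 FPKM in TG. Crym was named after its values were seen, and its difference was not tested. The long noncoding gene Gm26512, whose exons share 100 bases with Dio2 on the opposite strand, ranged from 0.0470 to 0.380 FPKM in WT and from 0 to 0.0564 FPKM in TG, far below Dio2.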
